A study of Mus musculus with 8 samples.

Results

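The genes described here are 10 mouse genes of the endoplasmic reticulum (ER) stress response, Hspa5, Creld2, Sdf2l1, Dnajb9, Herpud1, Xbp1, Atf4, Asns, Trib3 and Ddit3, taken by name with every probe set that the array annotation gives to them. They had 21 probe sets of the 45101 on the array, all 21 passed the filter on dim signals, and all 10 genes were among the 17790 genes tested. The data are 8 Affymetrix arrays for the mouse genome, each hybridised with liver RNA pooled from 3 mice. All mice were BALB/c, 8 weeks of age, and all had received a recombinant adenovirus (rAd.) 5 days before a 78% liver resection, by a route described as transducing 30% to 40% of hepatocytes. The post-A20 group was the remnant liver 24 h after resection in mice given rAd.A20, which carries human A20, and the pre-A20 group was the part of the liver removed at resection in mice given the same virus. The post-βgal and pre-βgal groups were the remnant and the removed liver of mice given rAd.βgal, the control virus with bacterial β-galactosidase. Each group had 2 arrays, so n = 2 for every mean below. No group was free of virus or of surgery, and nothing in the labels ties a pool taken before resection to one taken after it. For the post-A20 samples, the labels' treatment field names βgal, but every other label names A20, and those other labels were followed. The probe sets for Tnfaip3, the mouse gene of A20, do not check the human transgene.

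The ER folds and modifies secreted and membrane proteins, and when unfolded proteins build up there, the sensors IRE1, PERK and ATF6 start the unfolded protein response. IRE1 splices the mRNA of Xbp1, whose product then drives genes of folding and degradation. PERK phosphorylates eIF2α, which lowers protein synthesis in general but raises translation of Atf4, and cleaved ATF6 drives chaperone genes such as Hspa5. Hepatocytes secrete most plasma proteins and are rich in ER, and Atf4 also answers to amino acid shortage through other eIF2α kinases, so that its targets are not specific to ER stress.

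The promoters of these genes differ in the short motifs through which the response is known to act. The ER stress response element (ERSE, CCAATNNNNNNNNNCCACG), its variant ERSE-II (ATTGGNCCACG) and the C/EBP-ATF response element bound by ATF4 (CARE, TGATGNAA) were searched on both strands of RefSeq windows of 300 bases, 250 before to 50 after each gene start, in GRCm38.p6. All 10 genes had a window. ERSE was present in 0.119% of 32851 windows, ERSE-II in 0.0365% and CARE in 3.97%. Hspa5 had ERSE 65 to 47 bases before its start, and Creld2 had it on the opposite strand 126 to 108 bases before its start. Herpud1 had ERSE-II 52 to 42 bases before its start and CARE on the opposite strand 112 to 105 bases before it. Asns had CARE 23 to 16 bases before its start, and Trib3 had it on the opposite strand, past its start. The windows of Ddit3, Atf4, Xbp1, Dnajb9 and Sdf2l1 held none of these exact letters. The 150 bases before the start are shown for the 4 genes on which the results below turn, read in the direction of the gene, with the matches in capitals. They lie at chr2:34771940-34772089 (+) for Hspa5, chr15:88819496-88819645 (+) for Creld2, chr8:94386279-94386428 (+) for Herpud1 and chr6:7693210-7693359 (-) for Asns.
Hspa5: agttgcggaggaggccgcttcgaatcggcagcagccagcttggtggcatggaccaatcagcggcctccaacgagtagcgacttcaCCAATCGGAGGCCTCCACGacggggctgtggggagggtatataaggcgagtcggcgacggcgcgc
Creld2: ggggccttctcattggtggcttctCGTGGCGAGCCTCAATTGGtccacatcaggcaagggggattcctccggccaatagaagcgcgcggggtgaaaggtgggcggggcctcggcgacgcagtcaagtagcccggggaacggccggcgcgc
Herpud1: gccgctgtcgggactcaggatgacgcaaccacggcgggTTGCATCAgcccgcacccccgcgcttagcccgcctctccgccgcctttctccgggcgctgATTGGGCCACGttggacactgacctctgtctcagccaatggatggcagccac
Asns: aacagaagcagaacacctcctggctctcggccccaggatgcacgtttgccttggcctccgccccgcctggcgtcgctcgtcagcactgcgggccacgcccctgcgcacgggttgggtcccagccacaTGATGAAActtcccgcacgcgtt
A match is a description of the letters, and binding was not measured.

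Signals are the deposited intensities in array units, each gene is represented by its brightest probe set on average, and each log2 fold change is the difference of group means of log2(signal + 16). Tests are limma's, over all 8 arrays, and a gene is called where its p, adjusted by Benjamini-Hochberg over the 17790 genes, was under 0.05. Replicate arrays are pools of different mice as far as the labels tell, and p-values measure the spread between such pools. Levels of different probe sets are not compared, and a lower signal from fewer cells of a type and from less RNA per cell cannot be told apart. In the array's own RNA quality probes, the actin 3′ to 5′ ratio was 3.64 on post-βgal array 1 and 7.0 on pre-βgal array 1, against 1.27 to 1.62 on the other 6 arrays. For the 10 genes, values that move with those arrays are given below. Summed markers of hepatocytes varied between 63235 and 73896 over the 8 arrays.

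Few of the 10 genes were called in any comparison: with A20 against βgal, Herpud1 before resection, Creld2 after it, and both in the average. In pre-A20 against pre-βgal livers, Herpud1 was called higher and no gene lower, where 0.714% of all genes were called higher and 1.78% lower. In post-A20 against post-βgal livers, Creld2 was called lower and none higher, where 0.0956% of all genes were called higher and 0.236% lower. In post-βgal against pre-βgal livers, Creld2 was called higher and none lower, where 1.5% of all genes were called higher and 0.748% lower. In post-A20 against pre-A20 livers, 0 of 10 were called (2 at an unadjusted p under 0.05, beside 15.4% of all genes), where 0.63% of all genes were called higher and 0.382% lower. Averaged over both times, A20 against βgal gave Herpud1 higher and Creld2 lower, beside 2.08% and 3.31% of all genes. Averaged over both viruses, after against before resection gave Asns higher and none lower, beside 2.83% and 1.93% of all genes. The interaction, which asks whether the response to resection differed between A20 and βgal, gave 0 calls among the 10 genes (4 at an unadjusted p under 0.05) and 0% of all genes in either direction (2788, or 15.7%, at an unadjusted p under 0.05). By single probe set, with p adjusted over all 42703 kept, 2 of the 21 were called in pre-A20 against pre-βgal livers (both of Herpud1; 1.83% of all probe sets), 1 in post-A20 against post-βgal livers (Creld2; 0.283%) and 1 in post-βgal against pre-βgal livers (the second probe set of Asns; 1.11%). For the average of A20 against βgal, 4 of the 21 were called, both of Herpud1 higher and those of Creld2 and the second of Asns lower (4.07% of all probe sets), and for the average of resection both of Asns, higher (3.11%).

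**Figure D1:**
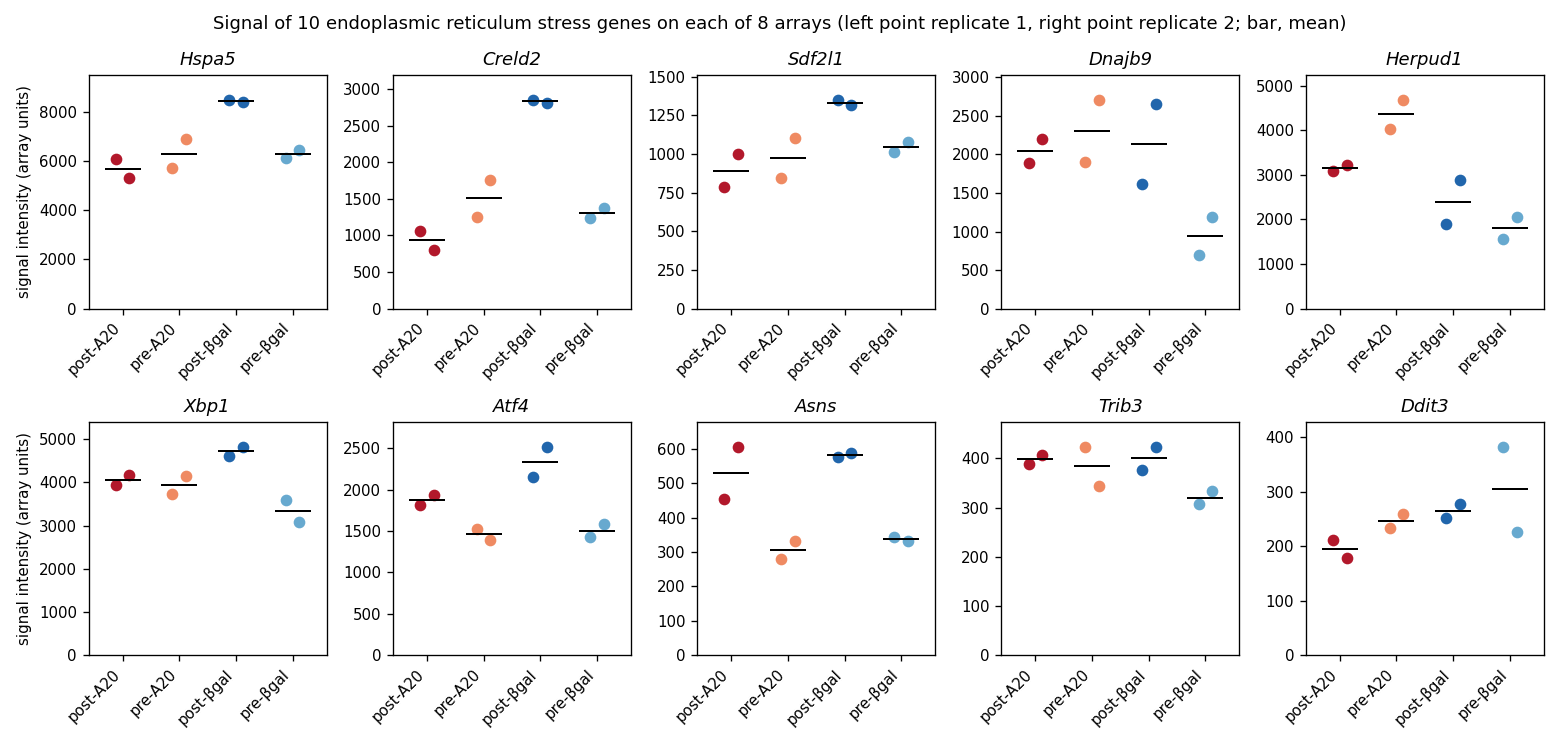
Signal intensity (array units, axes starting at 0) of the 10 genes on each of the 8 arrays, by group; points are arrays and bars are means of 2. The post-βgal arrays lie above both pre-βgal arrays for 8 of the 10 genes, and Creld2 on both post-βgal arrays is at least 2816, against 1760.3 or less on every other array.

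The ER chaperones are given first. Creld2, an ER protein with disulfide isomerase activity, was called in 3 of the 7 comparisons, more than any other of the 10 genes. Its signals were 1065 and 802 on the post-A20 arrays, 1253 and 1760.3 on the pre-A20 arrays, 2856 and 2816 on the post-βgal arrays and 1236 and 1381 on the pre-βgal arrays. The post-βgal arrays stood above all others and the post-A20 arrays below all others, while the groups before resection overlapped. Creld2 was lower in post-A20 than in post-βgal livers (log2 fold change -1.60, SE 0.22, 95% interval -2.11 to -1.09, limma adjusted p = 0.0387), a level 0.33 times that in post-βgal. It was higher in post-βgal than in pre-βgal livers (1.11, SE 0.22, adjusted p = 0.0492). Before resection the difference between pre-A20 and pre-βgal livers was 0.18 (95% interval -0.33 to 0.69, adjusted p = 0.660), and in A20 livers the difference after resection was -0.67 (95% interval -1.18 to -0.17, adjusted p = 0.197). The interaction was -1.78 (SE 0.31, 95% interval -2.50 to -1.06), with an unadjusted p of 0.000487, rank 36 among all genes, and an adjusted p of 0.212 in limma. Averaged over both times, Creld2 was lower with A20 (log2 fold change -0.71, SE 0.16, adjusted p = 0.0441), a call kept without pre-βgal array 2 and lost on leaving out any other array (-0.83 to -0.59, adjusted p up to 0.150). The call after resection was lost on leaving out any array of post-A20, pre-A20 or post-βgal (log2 fold change -1.80 to -1.40, adjusted p up to 0.219) and kept without either pre-βgal array. The call for post-βgal against pre-βgal livers was lost on leaving out any 1 of the 8 arrays (1.03 to 1.19, adjusted p 0.0524 to 0.235).

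Hspa5 (BiP), the main Hsp70 chaperone of the ER and a partner of all the sensors, followed Creld2 over a narrower range. Its signals were 6071 and 5298 on the post-A20 arrays, 5692 and 6892 on the pre-A20 arrays, 8478 and 8403 on the post-βgal arrays and 6129.9 and 6431 on the pre-βgal arrays. The post-βgal arrays were again the highest, and the other groups overlapped or lay close. Post-A20 against post-βgal livers gave -0.57 (SE 0.15, 95% interval -0.91 to -0.23) and post-βgal against pre-βgal livers 0.43 (SE 0.15, 95% interval 0.08 to 0.77), and neither was called (limma adjusted p = 0.125 and 0.156). In pre-A20 against pre-βgal livers the difference was -0.00 (95% interval -0.35 to 0.34). Hspa5 has 3 probe sets, and on each of them both post-βgal arrays were above both post-A20 arrays and both pre-βgal arrays. The sizes differed: the dimmest gave -0.08 (SE 0.14) in post-A20 against post-βgal livers and 0.12 (SE 0.14) in post-βgal against pre-βgal livers. The second brightest had 2288 on pre-βgal array 1, of the raised actin ratio, and 3651 on pre-βgal array 2.

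Sdf2l1, an ER protein that works with BiP, had signals of 785 and 998 on the post-A20 arrays, 843 and 1101 on the pre-A20 arrays, 1350.0 and 1314 on the post-βgal arrays and 1011 and 1075 on the pre-βgal arrays. The post-βgal arrays were the highest here too, and the other groups overlapped or lay close. The log2 fold change was -0.58 (95% interval -1.03 to -0.13) in post-A20 against post-βgal livers and 0.35 (95% interval -0.10 to 0.80) in post-βgal against pre-βgal livers, and neither was called (limma adjusted p = 0.183 and 0.326).

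Dnajb9 (ERdj4), a J-domain co-chaperone of BiP and a target of XBP1, had another pattern. Its signals were 1884 and 2201 on the post-A20 arrays, 1902 and 2709 on the pre-A20 arrays, 1619 and 2654 on the post-βgal arrays and 689.6 and 1192 on the pre-βgal arrays. The pre-βgal arrays were the lowest and the other groups overlapped. Pre-A20 against pre-βgal livers gave 1.31 (SE 0.33, limma adjusted p = 0.0835) and post-βgal against pre-βgal livers 1.18 (SE 0.33, adjusted p = 0.110), and neither was called. Array 1 was the lower of the pair in all 4 groups, with a log2 difference, array 1 minus array 2, of -0.22 in post-A20, -0.51 in pre-A20, -0.71 in post-βgal and -0.78 in pre-βgal, where only the βgal arrays numbered 1 had the raised actin ratio. With the RNA integrity measure as a covariate in the fit, both passed the test, at 0.97 (adjusted p = 0.0441) for pre-A20 against pre-βgal livers and 1.04 (adjusted p = 0.0188) for post-βgal against pre-βgal livers. Without pre-βgal array 1 the difference between pre-A20 and pre-βgal livers was 0.92 (adjusted p = 0.239), and without pre-βgal array 2 it was 1.70 (adjusted p = 0.0273).

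Herpud1, an ER membrane protein of the complex that sends misfolded proteins to the proteasome, was the gene called between A20 and βgal livers before resection. Its signals were 3095 and 3212 on the post-A20 arrays, 4041 and 4686 on the pre-A20 arrays, 1895 and 2896 on the post-βgal arrays and 1558 and 2047 on the pre-βgal arrays. Both pre-A20 arrays were above all others, and each A20 array was above each βgal array. Herpud1 was 2.42-fold higher in pre-A20 than in pre-βgal livers (log2 fold change 1.28, SE 0.24, 95% interval 0.73 to 1.83, limma adjusted p = 0.0449). After resection the difference between post-A20 and post-βgal livers was 0.43 (SE 0.24, 95% interval -0.12 to 0.97, adjusted p = 0.351), and averaged over both times Herpud1 was higher with A20 by 0.85 (SE 0.17, adjusted p = 0.0348). The interaction was -0.85 (95% interval -1.63 to -0.07, adjusted p = 0.293), so a difference between the 2 times was not called. The second probe set gave 1.61 (SE 0.23, adjusted p = 0.0277 over all probe sets) before resection, from signals of 4321 and 4903 on the pre-A20 arrays and 1367 and 1632 on the pre-βgal arrays. The call before resection was kept without pre-βgal array 2 (1.47, adjusted p = 0.0220) and lost on leaving out any of the other 7 arrays (1.08 to 1.38, adjusted p 0.0528 to 0.282). Array 1 was the lower of the pair in all 4 groups, with a log2 difference, array 1 minus array 2, of -0.05 in post-A20, -0.21 in pre-A20, -0.61 in post-βgal and -0.39 in pre-βgal, and without both βgal arrays numbered 1 the difference was 1.08 (adjusted p = 0.0714), while with the RNA integrity covariate it was 1.06 and called (adjusted p = 0.0172). The averaged call was also kept without pre-βgal array 2 and lost on leaving out any other array (0.70 to 1.00, adjusted p up to 0.126).

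**Figure D2:**
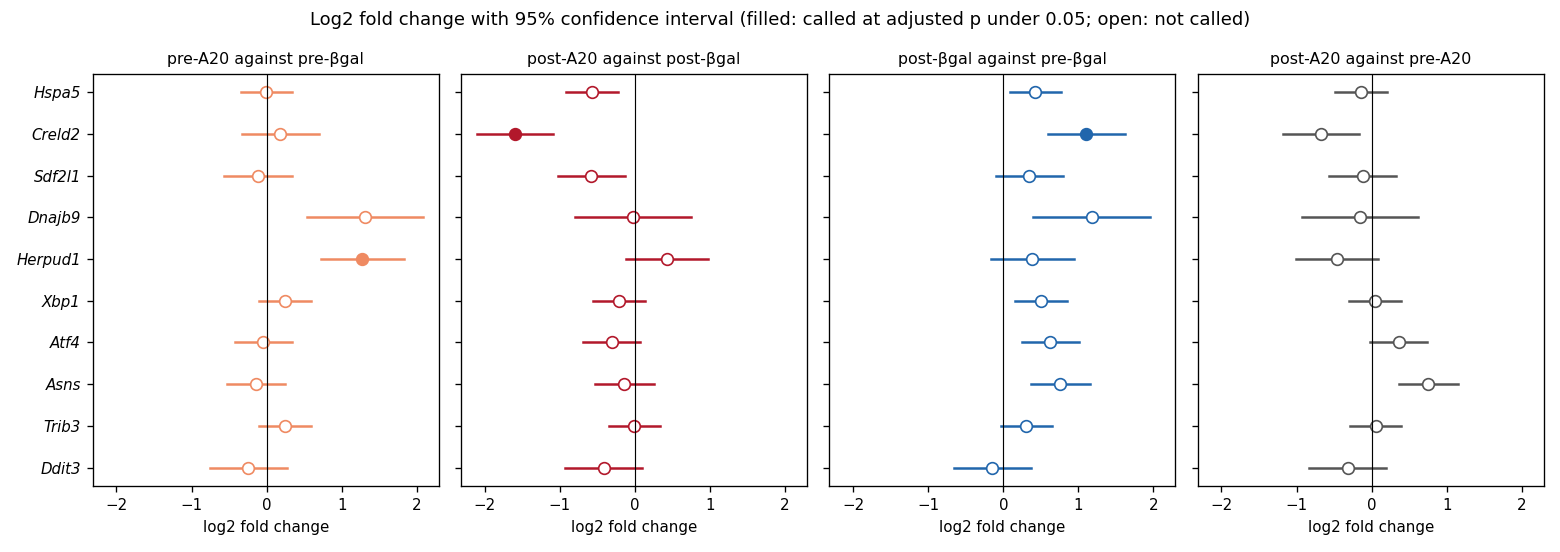
Log2 fold change (x axis) with its 95% interval for the 10 genes (rows) in the 4 comparisons of 2 groups; filled points passed an adjusted p of 0.05 and open points did not. Creld2 is filled in both comparisons that involve the post-βgal arrays, at -1.60 and 1.11, and Herpud1 in pre-A20 against pre-βgal livers, at 1.28.

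Among the transcription factors, Xbp1, the factor whose mRNA IRE1 splices, had signals of 3950.4 and 4176 on the post-A20 arrays, 3722 and 4157 on the pre-A20 arrays, 4610.3 and 4827 on the post-βgal arrays and 3588 and 3076 on the pre-βgal arrays. The βgal groups lay at the top and the bottom with the A20 groups between them. Post-A20 against post-βgal livers gave -0.22 (95% interval -0.57 to 0.13) and pre-A20 against pre-βgal livers 0.24 (95% interval -0.11 to 0.59), neither called (limma adjusted p = 0.447 and 0.380). Post-βgal against pre-βgal livers gave 0.50 (SE 0.15, adjusted p = 0.122), against 0.05 (SE 0.15, adjusted p = 0.920) in post-A20 against pre-A20 livers. The 4 probe sets of Xbp1 did not give 1 size: the second brightest had 3153 and 5058 on the post-βgal arrays and 892 and 1783 on the pre-βgal arrays, a log2 fold change of 1.65 (SE 0.34, adjusted p = 0.0712 over all probe sets), with array 1 the lower in each of these pairs. That probe set also gave 1.24 (SE 0.34, adjusted p = 0.105 over all probe sets) in pre-A20 against pre-βgal livers, not called. In post-A20 against post-βgal livers it gave -0.16 (SE 0.34). Spliced and unspliced Xbp1 were not separated here.

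Atf4, the factor translated when eIF2α is phosphorylated, had signals of 1817 and 1936 on the post-A20 arrays, 1525 and 1395 on the pre-A20 arrays, 2150.4 and 2518 on the post-βgal arrays and 1424 and 1585 on the pre-βgal arrays. Both groups after resection were above both groups before it, with the post-βgal arrays the highest. Post-βgal against pre-βgal livers gave 0.63 (SE 0.16, limma adjusted p = 0.0940), post-A20 against pre-A20 livers 0.36 (SE 0.16, adjusted p = 0.351) and the average of both 0.49 (SE 0.12, 95% interval 0.22 to 0.76, adjusted p = 0.0575), none of them called. A20 against βgal livers differed by -0.31 (95% interval -0.69 to 0.07) after resection and by -0.04 (95% interval -0.42 to 0.34) before it. The second probe set of Atf4 spread widely within pre-βgal, with 1793 on array 1 and 652 on array 2. These are mRNA levels, while the regulation of Atf4 is known to lie largely in its translation.

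Ddit3 (CHOP), the factor linked to cell death in prolonged ER stress, was dim, with signals of 212 and 178 on the post-A20 arrays, 234 and 260.1 on the pre-A20 arrays, 252 and 278 on the post-βgal arrays and 383 and 227 on the pre-βgal arrays. The pre-βgal arrays differed from each other by more than any 2 group means did, with array 1, of the raised actin ratio, the higher, and post-A20 was the lowest group. Log2 fold changes lay between -0.42 and -0.15 in the 4 comparisons of 2 groups, and none was called (limma adjusted p 0.331 to 0.719). Ddit3 was the only 1 of the 10 genes whose mean was not higher in post-βgal than in pre-βgal livers (-0.15, 95% interval -0.66 to 0.36). On its second, dimmer probe set pre-A20 was the lowest group, with 86.0 and 86.3 against 110 and 95.3 on the post-A20 arrays (0.21, SE 0.12). There the post-A20 and post-βgal arrays overlapped, and post-βgal against pre-βgal livers gave 0.11 (SE 0.12). None of these was called.

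Of the targets of ATF4, Asns, which makes asparagine, was higher after resection with either virus. Its signals were 455 and 606 on the post-A20 arrays, 281 and 331 on the pre-A20 arrays, 577 and 586 on the post-βgal arrays and 342 and 332 on the pre-βgal arrays. Every array after resection was above every array before it. The difference was 0.76 in post-A20 against pre-A20 livers (SE 0.17, limma adjusted p = 0.0890) and 0.76 in post-βgal against pre-βgal livers (SE 0.17, adjusted p = 0.0650), neither called. Averaged over both viruses, Asns rose 1.69-fold (0.76, SE 0.12, 95% interval 0.48 to 1.03, adjusted p = 0.0147). The interaction was -0.00 with a 95% interval of -0.56 to 0.55. The second probe set, which was far dimmer, had signals of 36.2 and 74.1 on the post-A20 arrays, 19.2 and 19.3 on the pre-A20 arrays, 164 and 166 on the post-βgal arrays and 55.0 and 31.0 on the pre-βgal arrays. On it, post-βgal was above every other group, post-βgal against pre-βgal livers gave 1.65 (SE 0.26, adjusted p = 0.0378 over all probe sets), and post-A20 against post-βgal livers gave -1.40 (SE 0.26, adjusted p = 0.0822), against -0.14 (95% interval -0.53 to 0.25) on the brighter one. Averaged over both times, A20 against βgal gave -1.06 on the dimmer probe set, called lower (SE 0.19, adjusted p = 0.0306 over all probe sets), against -0.14 (SE 0.12, adjusted p = 0.484) on the brighter one, and with the mean of both probe sets as the value of the gene it was -0.60 and called (adjusted p = 0.0338). The averaged call was lost without post-βgal array 1, post-βgal array 2, pre-A20 array 1 or post-A20 array 2 (0.66 to 0.76, adjusted p 0.0563 to 0.0664).

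Trib3, a pseudokinase induced by ATF4 and CHOP that restrains them, had signals of 389 and 406 on the post-A20 arrays, 424 and 344 on the pre-A20 arrays, 377 and 423 on the post-βgal arrays and 307 and 333 on the pre-βgal arrays. The pre-βgal arrays were the lowest and the other groups overlapped. Its log2 fold changes ran between -0.01 and 0.31 in the 4 comparisons of 2 groups, none called (limma adjusted p 0.261 to 0.984). On its second, dimmer probe set post-A20 had the lowest mean, with 188 and 194, against 229 and 226 on the post-βgal arrays. There post-A20 against post-βgal livers gave -0.24 (SE 0.13) and post-A20 against pre-A20 livers -0.22 (SE 0.13), neither called.

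As a group, the 10 genes had a median log2 fold change of 0.46 in post-βgal against pre-βgal livers, where the median of all genes was -0.05, and 9 of 10 were positive. Both post-βgal arrays were above both pre-βgal arrays for 8 of the 10, where 20.4% of all genes were so placed, and 6 of the 10 had an unadjusted p under 0.05, where 22.2% of all genes did. In post-A20 against pre-A20 livers the median was -0.13, where that of all genes was 0.02, and 4 of 10 were positive. In post-A20 against post-βgal livers the median was -0.26, where that of all genes was 0.03. Both post-A20 arrays were below both post-βgal arrays for 6 of the 10 (Hspa5, Creld2, Sdf2l1, Xbp1, Atf4 and Ddit3), where 26.4% of all genes were so placed, and Herpud1 was the 1 gene placed above. In pre-A20 against pre-βgal livers the median was 0.09, where that of all genes was -0.03, and 5 of 10 were positive. Of all 17790 genes, 7569 were positive in post-βgal against pre-βgal livers, 9685 in post-A20 against pre-A20 livers and 7991 in pre-A20 against pre-βgal livers. The interaction was negative for all 10 genes on their brightest probe sets, between -1.78 (Creld2) and -0.00 (Asns), with a median of -0.46. Among all 17790 genes the median was 0.05 and 10122 were positive. Over the alternatives tried, the interaction ran from -0.34 to 0.20 for Asns and from -0.60 to 0.19 for Ddit3. The second probe set of Ddit3 gave an interaction of 0.10 (SE 0.16). These comparisons share arrays: each group enters 2 of the 4 comparisons of 2 groups, and the interaction uses all 4 groups, so they are not independent of each other.

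Over the 8 arrays, Hspa5 ran with Creld2 and Sdf2l1 but not with Dnajb9. The log2 signals of Hspa5 and Creld2 had a Pearson r of 0.978 and a Spearman rho of 0.929, and r was 0.905 over the 6 arrays left without post-βgal, the 2 farthest from the median of Hspa5. Hspa5 and Sdf2l1 had an r of 0.829 (rho 0.905), which was 0.439 without the post-βgal arrays, so that this relation rests on them. Dnajb9 had an r of 0.201 with Hspa5, 0.217 with Creld2 and 0.114 with Sdf2l1. Atf4 and its target Asns had an r of 0.884 (rho 0.810) and 0.863 without the post-βgal arrays. Herpud1 and Dnajb9 had an r of 0.824 (rho 0.810) and 0.715 without array 1 of both βgal groups. Herpud1 and Hspa5 had an r of -0.238, and the lowest r of the 45 pairs was -0.571, between Ddit3 and Trib3. These values describe 8 arrays in 4 groups, and each pair shares the same arrays. Among all 17790 genes, those with the highest r to Hspa5 were 2700097O09Rik (0.988), Kifap3 (0.984) and Itgb1bp1 (0.980), and those with the highest r to Asns were Ccnyl1 (0.990), Gpx3 (0.988) and Psme3ip1 (0.981).

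**Figure D3:**
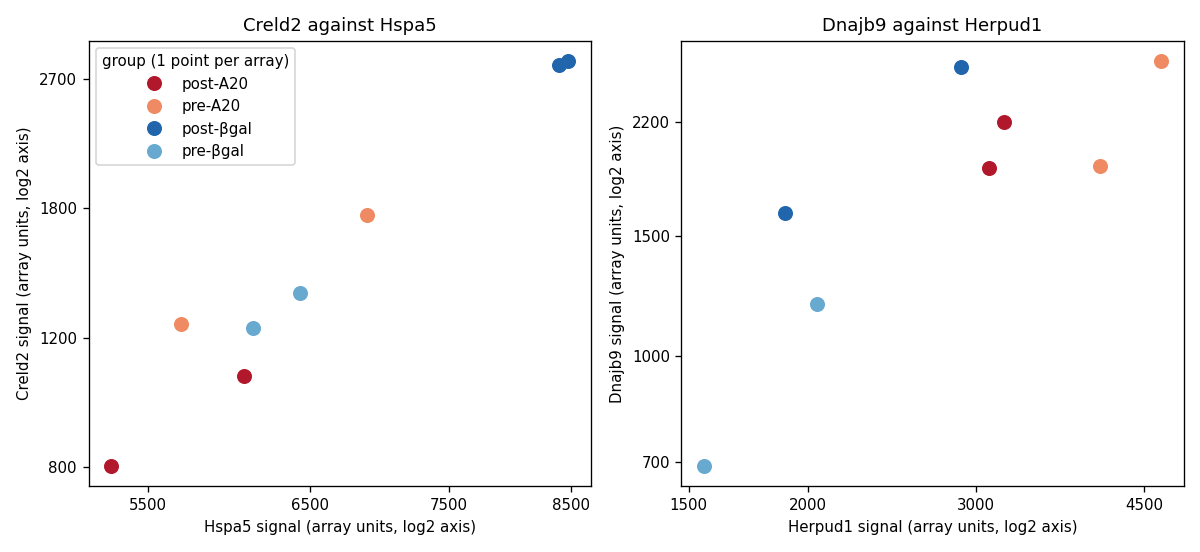
Signals of Creld2 against Hspa5 (left) and of Dnajb9 against Herpud1 (right), array units on log2 axes, 1 point per array coloured by group. In the left panel the post-βgal arrays lie apart at the top right and the other 6 arrays still line up (r = 0.905). In the right panel array 1 lies to the lower left of array 2 in every group, A20 as well as βgal.

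The other genes of the pathway were read from 5 lists with 135 genes, 127 of them tested. Of the genes of chaperoning and folding, 1 of 26 was called in post-βgal against pre-βgal livers (higher, beside 1.5% of all genes, 16 positive, median 0.17) and 0 of 26 in post-A20 against post-βgal livers (3 at an unadjusted p under 0.05, beside 19.6% of all genes, 8 positive, median -0.15). The called gene was Txndc11, a thioredoxin-domain protein of the ER, with 501 and 482 on the post-βgal arrays and 254 and 273 on the pre-βgal arrays (log2 fold change 0.86, SE 0.14, limma adjusted p = 0.0325). Without both βgal arrays numbered 1 its value was 0.78 and not called. Averaged over both viruses, Txndc11 (0.53) and Ero1a (0.76), the oxidase that supplies disulfide bonds, were higher after resection, beside 2.83% of all genes. Manf, a secreted ER stress protein named here after its values were seen, had 2835 ± 139 in post-A20 and 5295 ± 74.8 in post-βgal livers (SD, n = 2), a log2 fold change of -0.90 that was not called (limma adjusted p = 0.105). The call for Txndc11 in post-βgal against pre-βgal livers was kept without pre-βgal array 2 and lost on leaving out any of the other 7 arrays (0.81 to 0.89, adjusted p up to 0.181).

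Other chaperones with an exact ERSE in their promoter windows, named for it after their values were seen, were not called where Creld2 was. Among them are the lectin chaperones Calr and Canx, the ER Hsp90 Hsp90b1 and the disulfide isomerase Pdia6. In post-A20 against post-βgal livers, Calr gave -0.23, Canx 0.04, Hsp90b1 -0.28 and Pdia6 -0.10, none called (limma adjusted p 0.365 to 0.925). Of the other ER genes with ERSE, Syvn1 and Dnajc3 gave values in the direction of Creld2 and Derl3 gave values in the opposite direction, none of them called. Syvn1, the ubiquitin ligase of ER-associated degradation, gave -0.71 in that comparison (unadjusted p = 0.00949, adjusted p = 0.149). Dnajc3, a co-chaperone of BiP, gave -0.22 there (adjusted p = 0.469), 0.58 in post-βgal against pre-βgal livers (adjusted p = 0.105) and an interaction of -0.87 (unadjusted p = 0.00504, adjusted p = 0.212). Derl3 gave 0.32 in post-A20 against post-βgal livers (adjusted p = 0.344). It gave -0.50 in post-βgal against pre-βgal livers (unadjusted p = 0.0226, adjusted p = 0.160) and an interaction of 0.38 (adjusted p = 0.478). Ero1b gave -0.17 in post-A20 against post-βgal livers and -0.05 in post-βgal against pre-βgal livers, neither called. ERSE was found in the windows of 37 genes, of which 20 were tested. Their median log2 fold change was -0.18 in post-A20 against post-βgal livers, where that of all genes was 0.03, with Creld2 the 1 gene called. In post-βgal against pre-βgal livers it was -0.06, where that of all genes was -0.05, again with Creld2 the 1 gene called. Alg12, a mannosyltransferase of the ER whose window also holds ERSE, gave -0.06 after resection and -0.28 before it for A20 against βgal livers, neither called (adjusted p = 0.853 and 0.357). For CARE, 454 genes with a match were tested, and their median was -0.08 in post-βgal against pre-βgal livers, where that of all genes was -0.05.

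Among 34 genes of ER-associated degradation and translocation, 0 were called in each of the 7 comparisons with limma. In post-βgal against pre-βgal livers 26 of the 34 were positive, with a median of 0.39, and 10 had an unadjusted p under 0.05 (22.2% of all genes, smallest adjusted p = 0.0613). In post-A20 against post-βgal livers 6 of 34 were positive, with a median of -0.16, and 4 had an unadjusted p under 0.05 (19.6% of all genes).

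The list of ATF4 and the amino acid response, the largest with 39 of the 127 tested genes, held most of the calls. In post-βgal against pre-βgal livers 4 of 39 tested genes were called, all higher, where 1.5% of all genes were called higher. Psat1, an enzyme of serine synthesis, had 453 and 442 on the post-βgal arrays and 193 and 103 on the pre-βgal arrays (log2 fold change 1.55, SE 0.28, limma adjusted p = 0.0406). Iars, the isoleucyl-tRNA synthetase (1.04, adjusted p = 0.0435), Jdp2, a bZIP factor (1.01, adjusted p = 0.0358), and Fgf21, a stress hormone of hepatocytes (0.78, adjusted p = 0.0418), were the others. In post-A20 against pre-A20 livers 1 gene was called, Atf3, a stress-induced factor, with 499 and 574 on the post-A20 arrays and 173 and 178 on the pre-A20 arrays (1.53, SE 0.21, adjusted p = 0.0237). Atf3 was also the 1 gene called in pre-A20 against pre-βgal livers, where it was lower (-1.37, SE 0.21, adjusted p = 0.0316) with 592 and 386 on the pre-βgal arrays. Of all genes, 0.63% were called higher in post-A20 against pre-A20 livers and 1.78% lower in pre-A20 against pre-βgal livers. In post-A20 against post-βgal livers 0 of 39 were called, 15 had an unadjusted p under 0.05 (19.6% of all genes) and the median was -0.21. Averaged over both times, 5 of 39 were called lower with A20 and none higher, beside 3.31% and 2.08% of all genes. Among the 5 were Ddit4, an mTOR inhibitor (-1.18), Fgf21 (-0.62), Mthfd2, a mitochondrial folate enzyme (-0.60), and Slc7a5, a carrier of large amino acids (-0.57). Averaged over both viruses, 6 of 39 were called higher after resection, beside 2.83% of all genes, led by Psat1 (1.37, adjusted p = 0.0119). Leaving out both βgal arrays numbered 1 keeps 1 array in each βgal group. Jdp2 (1.26), Fgf21 (0.99) and Iars (1.05) were then no longer called in post-βgal against pre-βgal livers, while Psat1 (1.94) was. Atf3 (-1.07) was then not called in pre-A20 against pre-βgal livers, and its call in post-A20 against pre-A20 livers (1.53) was kept. The calls of Iars and Fgf21 in post-βgal against pre-βgal livers were lost on leaving out any 1 of the 8 arrays (adjusted p up to 0.235), and that of Psat1 on leaving out any array but the pre-βgal arrays (adjusted p up to 0.185). That of Jdp2 was lost without any 1 of the post-A20 arrays, the post-βgal arrays or pre-βgal array 2 (0.83 to 1.08, adjusted p up to 0.165), with the gene kept on the same probe set, an alternative added after seeing the data. Without post-βgal array 2 another probe set of Jdp2 became the brightest, and it gave 0.28 (adjusted p = 0.328). The call of Atf3 in post-A20 against pre-A20 livers was lost without any 1 of the 4 A20 arrays (1.43 to 1.62, adjusted p up to 0.187) and kept without any βgal array, and its call in pre-A20 against pre-βgal livers was kept only without pre-βgal array 2 (elsewhere adjusted p 0.0528 to 0.244).

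Among the 11 sensors and their regulators, 0 were called in the 4 comparisons of 2 groups, where at most 1.78% of all genes were called in 1 direction. Averaged over both viruses, Eif2ak3 (PERK) and Creb3l2, a relative of ATF6, were called higher after resection, beside 2.83% of all genes. Creb3l2 was higher by 0.45, and by 0.42 to 0.48 without any 1 array on the same probe set. Without pre-A20 array 2 another probe set of Creb3l2 became the brightest, and it gave 0.29 (adjusted p = 0.241). Eif2ak3 had 424 and 417 on the post-A20 arrays and 241 and 231 on the pre-A20 arrays, and 358 and 496 on the post-βgal arrays and 266 and 219 on the pre-βgal arrays (averaged log2 fold change 0.78, SE 0.12, limma adjusted p = 0.0145). Ern1 (IRE1) and Atf6 are named as sensors, though neither was called in these comparisons. Ern1 gave 0.38 and Atf6 0.09 in post-A20 against post-βgal livers. Before resection, pre-A20 against pre-βgal livers gave 0.46 for Ern1 (SE 0.19, limma adjusted p = 0.213) and 0.48 for Atf6 (SE 0.22, adjusted p = 0.260). Of 17 genes of feedback and cell death, 0 were called in the 4 comparisons of 2 groups, where at most 1.78% of all genes were called in 1 direction. Averaged over both times, Bak1, a pore former of apoptosis (-1.11), and Trp53inp1, a p53 target (-0.69), were lower with A20, beside 3.31% of all genes. Averaged over both viruses, Pmaip1 (Noxa) was higher after resection (0.32, limma adjusted p = 0.0242), beside 2.83% of all genes. Bak1 and Ddit4 were also high on pre-βgal array 1, of the raised actin ratio: Bak1 had 694 there and 447 on array 2 (680 and 516 in post-βgal), and Ddit4 had 699.7 and 390.2. The fit without both βgal arrays numbered 1 leaves 1 array in each βgal group. In it the averaged difference was -0.86 for Bak1, no longer called, and -0.96 for Ddit4, still called. The averaged calls with A20 of Slc7a5 (-0.52), Mthfd2 (-0.47) and Trp53inp1 (-0.75) were lost there too, and that of Fgf21 (-0.64) was kept. Of the averaged calls after resection, those of Txndc11 (0.49), Pmaip1 (0.33) and Creb3l2 (0.47) were lost. Those of Psat1, Slc7a5, Jdp2, Fgf21, Ero1a and Eif2ak3 were kept. The averaged calls of the list genes named here were kept without pre-βgal array 1 and without pre-βgal array 2, except that Mthfd2 and Trp53inp1 lost theirs without pre-βgal array 1, and each was lost without at least 3 of the other 6 arrays.

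**Figure D4:**
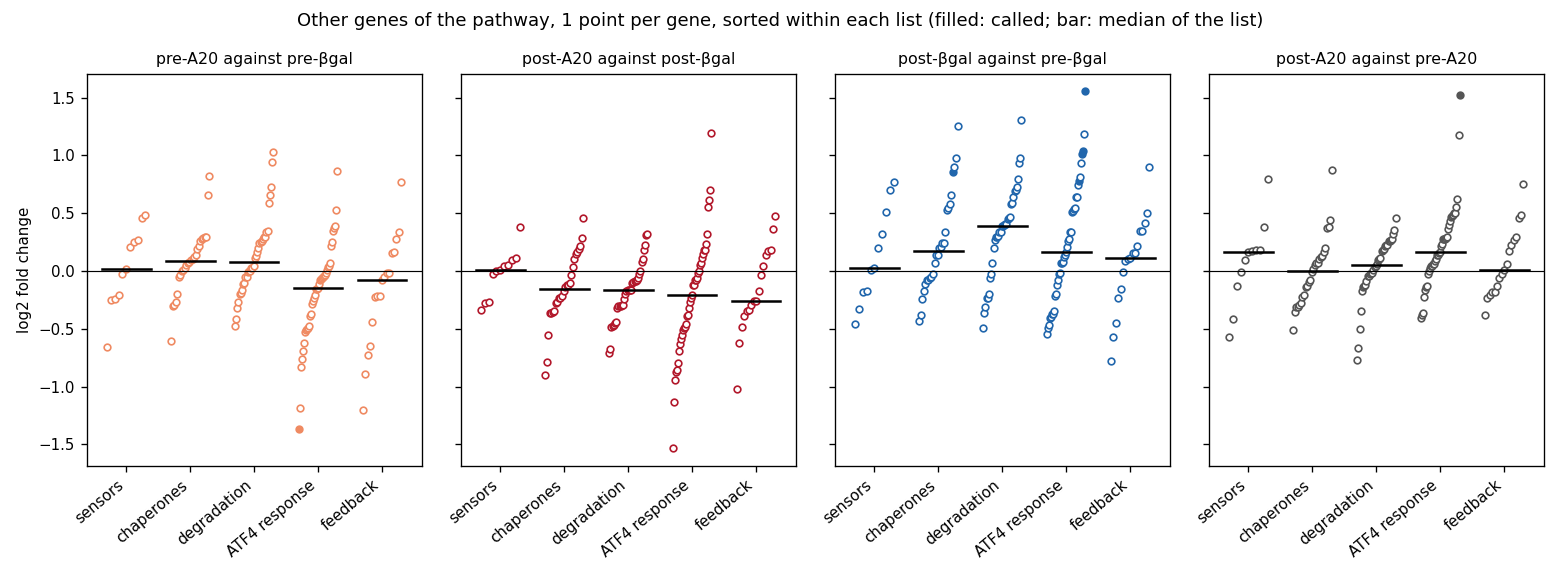
Log2 fold change (y axis) of the 127 tested genes of the 5 pathway lists in the 4 comparisons of 2 groups, 1 point per gene, sorted within each list; filled points were called and bars are list medians. The degradation list has its highest median, 0.39, in post-βgal against pre-βgal livers, and most filled points are in the ATF4 list, the largest of the 5.

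Markers of other liver cells differed between groups as well. The summed signal of 5 neutrophil markers was 1814 to 2074 on the post-A20 arrays, 1346 to 1426 on the pre-A20 arrays, 4378 to 5130.5 on the post-βgal arrays and 2774 to 3473 on the pre-βgal arrays. This sum moved with S100a8 and S100a9, which were called lower with A20 at both times. The other 3 were not called in the 4 comparisons of 2 groups and summed to 1245 to 1259 on the post-A20 arrays, 1034 to 1162 on the pre-A20 arrays, 1026 to 1135 on the post-βgal arrays and 1403 to 1521 on the pre-βgal arrays, so that post-βgal was not the highest in the sum without the S100 genes. Among these 3, Csf3r was called lower with A20 in the average over both times, while Mpo and Cxcr2 were not called. Csf3r had 214 and 244 on the post-βgal arrays and 234 and 205 on the pre-βgal arrays. Plasma cells are rich in ER, and their 6 markers on the array summed to 6483 to 7839 on the post-A20 arrays, 4311 to 4420 on the pre-A20 arrays, 6361 to 6572 on the post-βgal arrays and 5175 to 6351 on the pre-βgal arrays. Sdc1, which other cells of the liver also express, made up most of that sum, and without it the other 5 summed to 1460 to 1662 on the post-A20 arrays, 1483 to 1547 on the pre-A20 arrays, 1424 to 1432 on the post-βgal arrays and 1566 to 1739 on the pre-βgal arrays. The 6 markers of macrophages and Kupffer cells summed to 3855 to 4011 on the post-A20 arrays, 2718 to 3027 on the pre-A20 arrays, 3395 to 4156 on the post-βgal arrays and 4413 to 4569 on the pre-βgal arrays. Their sum was thus lower in pre-A20 than in pre-βgal livers, the comparison in which Herpud1 was called, with Csf1r called lower there and the other 5 not called. Csf1r, with 2638 and 2540 on the pre-βgal arrays, was the largest part of the sum. Marco went the other way, with 248 and 254 on the pre-A20 arrays and 184 and 159 on the pre-βgal arrays. The 4 endothelial markers summed to 1953 to 1963 on the post-A20 arrays, 2824 to 2930 on the pre-A20 arrays, 1531 to 1924 on the post-βgal arrays and 2437 to 2495 on the pre-βgal arrays, a sum lower after resection with either virus. This sum moved with Kdr and Clec4g, while the arrays of Stab2 overlapped with either virus. Pecam1 was higher after resection with A20 (180 and 206 against 160 and 150), and its βgal arrays overlapped. None of the markers on the array, of 43 listed for 8 cell types, lay below a mean signal of 40 in every group. The part of cell composition in the values of the ER genes was not tested.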

How the data were processed

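The authors deposited 1 table of intensity values per probe set on a linear scale, background corrected, summarised and scaled between arrays before deposition. Their methods name dChip with invariant set normalisation and the labels name MAS5, and which made the table is not stated. It was used with no further scaling. Symbols came from the array's annotation in GEO, and 932 probe sets with several symbols, 9160 with none and 64 controls stood for no gene. Probe sets with a mean of at least 40 in 1 group or more were kept (42703). After adding 16, log2 values of all of them were fitted in R 4.3.3 with limma 3.58.1, 1 mean per group and a variance trend (4 residual and 3.73 prior degrees of freedom). Tests were 2-sided, with the Benjamini-Hochberg method applied over 17790 genes. There were 7 comparisons, and the number of arrays, 2 per group, limits their precision. The fit was tested on simulated data. The members, lists and tests were chosen with earlier results of these data known. The named list genes are the called ones, at most 4 per list and comparison by smallest p, except where the text gives another reason for naming them. Promoter windows and coordinates are from RefSeq (GRCm38.p6). The alternatives tried are given with their effect in the closing section.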

Additional observations from a re-analysis of the deposited data

Results flagged for a closer look

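Creld2 stood out because its arrays moved in opposite directions with resection: both post-A20 arrays lay below both pre-A20 arrays (log2 fold change -0.67), while both post-βgal arrays lay above both pre-βgal arrays (1.11). The difference between these responses was -1.78, with a limma adjusted p of 0.212 over all genes. Xbp1 stood out on its brightest probe set, because both post-A20 arrays lay below both post-βgal arrays (-0.22), while both pre-A20 arrays lay above both pre-βgal arrays (0.24). On none of its other probe sets did the arrays lie apart in both comparisons. The difference was -0.46, with a limma adjusted p of 0.344. Neither difference was called, and with 2 arrays per group separation is frequent: in post-A20 against post-βgal livers, 26.4% of all genes had both arrays lower.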

How the results depend on the processing

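No called value of the 10 genes changed direction under any alternative tried, but every call except that of Asns lay close to the threshold. With 1 gene called in pre-A20 against pre-βgal livers as reported, quantile normalisation, a fit of only the 4 arrays compared and a fit without both βgal arrays numbered 1 called 0, while an RNA integrity covariate and the interval criterion (lower end of the 90% interval at least 1.5-fold) called 2 (Herpud1 and Dnajb9). With 1 called in post-A20 against post-βgal livers, the fit without both βgal arrays numbered 1 called 0. With 1 called in post-βgal against pre-βgal livers, the fit without a variance trend and the mean of all probe sets called 3, the RNA integrity covariate 5, variances moderated over the genes alone (added after seeing the data) 2, and the fits of only the 4 arrays compared and without both βgal arrays numbered 1 called 0. In post-A20 against pre-A20 livers the RNA integrity covariate called 1 (Asns) where 0 were reported. For the average of A20 against βgal, 2 were reported and 0 were called without both βgal arrays numbered 1 or by the interval criterion. For the average of after against before resection, 1 was reported, 2 were called with no variance trend, with the RNA integrity covariate and with variances over the genes alone, and 0 by the interval criterion. For the interaction, 0 were reported, and the RNA integrity covariate and the interval criterion each called 1 (Creld2). Leaving out 1 array in turn gave 0 to 2 calls in pre-A20 against pre-βgal livers, 0 to 1 in post-A20 against post-βgal and in post-βgal against pre-βgal livers, 0 to 4 for the average of A20 against βgal and 0 to 2 for the average of resection. The replicate block within each virus called 2, 0, 4 and 1 genes in the 4 comparisons of 2 groups (pre-A20 against pre-βgal, post-A20 against post-βgal, post-βgal against pre-βgal and post-A20 against pre-A20), 0 for the average of A20 against βgal and 3 for the average of resection. The labels do not pair the pools, and the replicate differences of post-βgal and pre-βgal correlated at 0.617 over 17790 genes against -0.0177 in post-A20 and pre-A20. The causes of these shifts were not tested. Median centring, the other filters and the other offsets left the counts as reported. The number of arrays limits all values, and Dnajb9 had the largest standard error of the 10 genes (0.33) and Trib3 the smallest (0.15).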
